A study of Mus musculus with 4 samples.

Results

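An alternative 3' splice site event is a choice between 2 acceptors that follow the same donor, so that the exon begins either at the acceptor nearer the donor (the proximal site) or further downstream (the distal site). The events described here are all those that Quantas, the authors' splicing software, listed for this choice in the cortex of E14.5 mouse embryos. The files held 9716 such listings among 38240 of 6 event types. Listings of 1 gene with identical junction tags in every sample were counted once, which left 8442 events in 5322 genes. A tag is the unit of sequenced RNA that Quantas assigns, and junction tags are those that cross from the donor into 1 of the 2 acceptors. Proximal site use is the percentage of the junction tags of both acceptors that lie on the proximal one. The experiment compared 2 control embryos with 2 *Qk* cKO embryos. Controls, labelled wild type, carried loxP-flanked *Qk* alleles (*Qk* fl/fl) according to the study, and *Qk* cKO embryos carried the same alleles with a *Nestin*-Cre transgene. *Nestin*-Cre acts in neural progenitors, so the deletion passes to their descendants, while blood, vessel and microglial cells in the tissue keep the gene.

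At a 3' splice site, the branch point, a run of pyrimidines and a terminal AG are read by SF1, the U2AF proteins and the SF3 complexes. Where several AGs lie close together, small differences between them set the acceptor that is used. *Qk* encodes Quaking, an RNA-binding protein of the STAR family that also contains SF1. Quaking recognizes the motif ACTAAC (in DNA letters) in RNA, a sequence that resembles the branch point, and it is known to promote or repress exons according to where it binds. The comparison shows which acceptor choices differed after the loss of Quaking.

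The acceptors of 1488 of the 2013 events with enough tags to be tested could be placed with GENCODE release M21 on GRCm38, which is the mm10 build of the files. The stretch between the acceptors was read from annotated transcripts for 1482 of them, and all 1482 stretches ended in AG, the last bases before the distal exon. The events with the most evidence for a difference were at *Ttyh1*, *Grip1* and *Gpm6b*, whose stretches hold copies of ACTAAC. Windows of 30 bases around each copy are shown because this is the sequence that Quaking recognizes, with ACTAAC in capitals.
Ttyh1 copy 1, chr7:4133883-4133912, plus strand: ggagaaggccccACTAACctgaccttgact
Ttyh1 copy 2, chr7:4133912-4133941, plus strand: tgggctctgaccACTAACactgctggctat
Ttyh1 copy 3, chr7:4134179-4134208, plus strand: tcaacctatggcACTAACttggaagagggc
Grip1 copy 1, chr10:119985745-119985774, plus strand: gcctttctttgtACTAACaccacgttgttt
Grip1 copy 2, chr10:119986206-119986235, plus strand: ctgggttgggatACTAACtaacctgtgact
Grip1 copy 3, chr10:119986210-119986239, plus strand: gttgggatactaACTAACctgtgactatgt
Gpm6b copy 1, chrX:166386750-166386779, plus strand: ctatatgtgcatACTAACgtttcttcaacc
Cdv3 copy 1, chr9:103355618-103355647, minus strand: gacgtattatctACTAACtgcgaaaactta
Copies 2 and 3 of *Grip1* overlap each other. For the same genes, the last bases of the stretch up to the distal acceptor show its pyrimidine run, with the terminal AG in capitals.
Ttyh1 distal acceptor, chr7:4134321-4134350, plus strand: tggttgaaaggcaactctcctcttgtccAG
Grip1 distal acceptor, chr10:119986302-119986331, plus strand: gctccgtgccaagtctctgctctcttacAG
Gpm6b distal acceptor, chrX:166386922-166386951, plus strand: ctagccatcatgctcacccttcttttccAG
Cdv3 distal acceptor, chr9:103355314-103355343, minus strand: tatttactgattacatttcttttcccttAG
The intron upstream of the proximal acceptor is not shown, since most annotated transcripts do not contain it.

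Summed over the listings, each sample had 899195 to 1063205 tags on proximal and 535159 to 634456 on distal junctions, and 37942046 to 42994832 tags were assigned to genes. Of the 8442 events, 794 had no junction tag and 1480 had tags on only 1 site. A further 4155 had tags on both sites but too few for a test, which required a coverage, the smallest row or column sum of tags by site and group, of at least 20. The 2013 tested events lay in 1582 genes. Of these, 171 shared their donor with another tested event and therefore some of their tags. The deletion was checked on the junction of *Qk* exons 2 and 3, which had 635 and 565 tags in the controls and 63 and 68 in *Qk* cKO.

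Use of the proximal site was lower in *Qk* cKO at *Grip1*, *Gpm6b* and 13 other genes and higher at *Ttyh1* and 11 other genes. Fisher's exact test (two-sided, on tags summed over replicates) called 27 of the 2013 events (1.34%) in 27 genes, at p below 0.01 and FDR below 0.1. Use of the proximal site rose in 12 of them (0.596% of those tested) and fell in 15 (0.745%). The difference was at least 10 percentage points in 15 events (0.745% of those tested), 7 towards the proximal and 8 towards the distal site. The values of the 2 groups did not overlap in 26 of the 27 called events, and did not overlap in 36.8% of all tested events either. In *Hnrnpc* the nearest samples of the 2 groups were equal to 2 decimals. Over all 2013 events the median difference, *Qk* cKO minus control, was -0.04 percentage points, and 49.1% of the events lay above 0. The 2 controls differed by a median of 3.84 percentage points per event and the 2 *Qk* cKO samples by 3.19. Fisher's exact test on summed tags leaves out the variation between embryos. With edgeR, whose quasi-likelihood model estimates this variation and tests whether genotype changes the ratio of the sites, 3 events passed (0.149%), those of *Ttyh1*, *Grip1* and *Gpm6b*. The other 24 called events had an edgeR FDR of 0.837 (quasi-likelihood test, Benjamini-Hochberg), and without adjustment 24 of the 27 had p below 0.05, as had 107 of all tested events. With each embryo left out in turn, *Ttyh1*, *Grip1*, *Gpm6b* and *Celf1* were called by Fisher's exact test in all 4 cases, and the other 23 were lost in at least 1. Using the isoform tags that the files also hold, 51 events were called (2.53%), 20 of them among the 27.

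Markers of other cell types and regions moved with the groups in part. Markers of the hypothalamus and diencephalon, which adjoin the cortex, summed to 8.79 and 13.8 RPKM in control and 6.58 and 6.82 in *Qk* cKO, with 5 of 6 genes called lower in edgeR (*Nkx2-2*, *Pomc*, *Six6*, *Sox14* and *Nr5a1*). DESeq2 gave these 5 no adjusted p, and an unadjusted p below 0.05. Of 4 microglial genes *Ctss* was called lower in edgeR, with no adjusted p in DESeq2. The 4 summed to 19.1 and 19.4 RPKM in control and 14.8 and 16.6 in *Qk* cKO. Mean *Ctss* was 8.43 RPKM in control and 5.42 in *Qk* cKO, so most of the fall in the sum lay in this gene. The log2 fold change in edgeR was 0.0102 for *Aif1*, 0.0148 for *Cx3cr1* and -0.114 for *Csf1r*, and the groups overlapped in each. Among markers of intermediate progenitors (4), cortical neurons (6), subpallium (5), endothelium (3), choroid plexus (3), the oligodendrocyte lineage (4) and erythroid cells (4), 0 were called by edgeR or DESeq2. In edgeR an unadjusted p below 0.05 was found for 1 gene each of the neuronal, oligodendrocyte and erythroid lists and 2 of the subpallial list. The part of these cell types in the acceptor events was not tested.

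**Figure D1:**
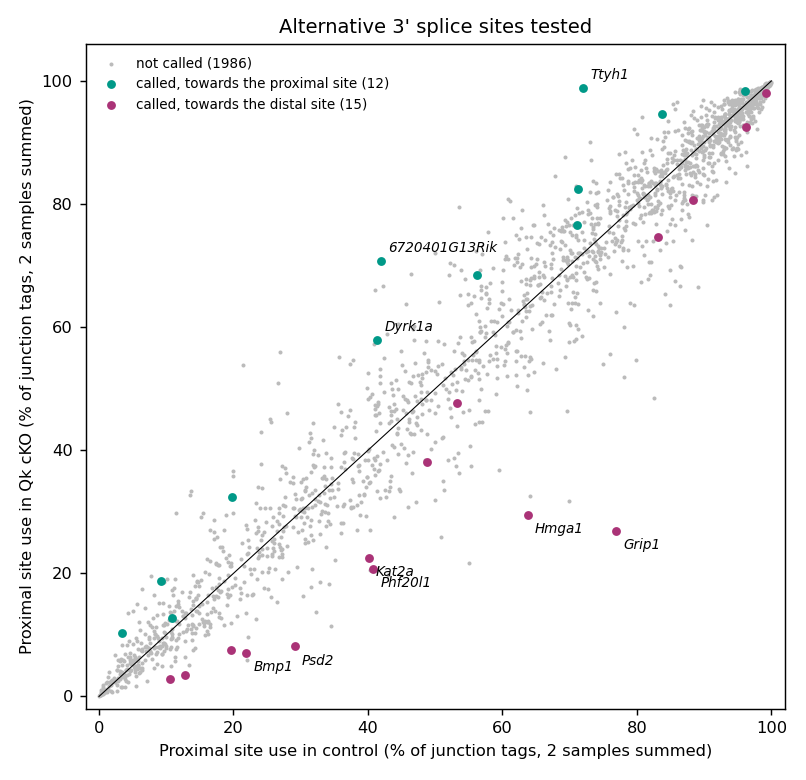
Proximal site use in *Qk* cKO (vertical axis, % of junction tags) against control (horizontal axis, % of junction tags) for 2013 tested events, with tags summed over the 2 samples of each group. Grey points were not called, green points moved towards the proximal site (12) and purple points towards the distal site (15). *Grip1* and *Hmga1* lie far below the diagonal and *Ttyh1* and 6720401G13Rik far above it.

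*Ttyh1* encodes a membrane protein of the tweety family that is abundant in neural stem cells. Its 2 acceptors are 485 nt apart on chromosome 7 (4133866 and 4134351, plus strand). The distal junction had 99.6 and 90.0 tags in the controls, 6 in *Qk* cKO replicate 1 and 0 of 280 in replicate 2, which allows a share of up to 1.07% at the counting error of 3 tags. The proximal junction had 236 and 252 tags in control and 272 and 280 in *Qk* cKO. The distal junction was thus nearly without tags in *Qk* cKO, and the proximal junction kept its tags. Proximal use was 70.4% and 73.7% in control against 97.8% and 100% in *Qk* cKO, a difference of 26.9 percentage points of the summed tags (FDR 1.23e-43, Fisher's exact test). The edgeR interaction test gave a log2 change in the odds of the proximal site of 5.10 (SE 0.53, FDR 0.0008). The level of *Ttyh1* mRNA was also lower, at 32.4 ± 1.13 RPKM (SD, n = 2) against 43.9 ± 1.59 in control (log2 fold change -0.42, SE 0.05, edgeR FDR 0.0006). Summed over 8 markers of radial glia, the neural stem cells of the cortex, RPKM was 1633 and 1512 in control and 1329 and 1267 in *Qk* cKO, with *Fabp7* and *Slc1a3* called lower by edgeR and 1 gene called by DESeq2. *Fabp7* alone was at 989 and 901 RPKM in control and 703 and 667 in *Qk* cKO, so most of the fall in the sum lay in this gene. In bulk tissue, fewer cells of a type and less RNA per cell cannot be told apart, and the part of these markers in the *Ttyh1* result was not tested. In GENCODE, the proximal acceptor is used by 5 transcripts and the distal acceptor by 3, and the stretch between them is 3' UTR in some transcripts and holds the last 36 nt of coding sequence in *Ttyh1*-202.

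*Grip1* encodes a PDZ scaffold that binds AMPA-type glutamate receptors and ephrin signalling proteins. Its acceptors are 858 nt apart on chromosome 10 (119985474 and 119986332, plus strand). The proximal junction had 96.8 and 60.8 tags in control and 25.3 and 30 in *Qk* cKO, and the distal junction 14.2 and 33.1 against 69.7 and 81.0. The preferred acceptor was therefore the proximal one in both controls and the distal one in both *Qk* cKO samples. Proximal use was 87.2% and 64.7% in control and 26.7% and 27.03% in *Qk* cKO. With replicates summed, it fell by 50.05 percentage points (76.9% to 26.9%, FDR 1.85e-22, Fisher's exact test). In the edgeR interaction test the log2 change in odds was -3.19 (SE 0.53, FDR 0.0382). The controls differed from each other by more than 20 points, yet the groups did not overlap. The level of *Grip1* was 16.96 ± 0.877 RPKM in control and 16.8 ± 1.08 in *Qk* cKO (SD, n = 2, edgeR FDR 0.996). In 4 of the 5 GENCODE transcripts that use the proximal acceptor, the exon that it opens is 156 nt long and ends before the distal acceptor, so that its use is also the inclusion of a cassette exon. The files list that cassette too, with a junction tag column in common. Tags of both its inclusion junctions, summed, made up 85.7% of its junction tags in control and 39.3% in *Qk* cKO. An included transcript can add tags at both inclusion junctions, and a skipping transcript only at the skipping junction. These shares therefore overstate exon inclusion.

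*Gpm6b* encodes a membrane glycoprotein of the proteolipid protein family, on the X chromosome. Its acceptors at 166385391 and 166386952 (plus strand) are 1561 nt apart. The distal site was the main one in all 4 samples, with 906 and 710 tags in control and 1047 and 972 in *Qk* cKO. The proximal site had 124 and 112 tags in control and 42.5 and 31.9 in *Qk* cKO. Proximal use fell from 12.1% and 13.6% to 3.9% and 3.18%, with no overlap (FDR 1.11e-24, Fisher's exact test). The log2 change in odds was -2.0 (SE 0.22, edgeR FDR 0.0009), the smallest standard error of the 3. The annotated coding sequence ends 78 nt into the exon from the proximal acceptor and 147 nt into that from the distal acceptor, so the annotated C-terminus differs between them. In 3 of the 6 transcripts with the proximal acceptor, its exon is 91 nt long and ends before the distal acceptor. In the corresponding cassette event, which shares a tag column, the summed inclusion junctions held 17.3% of the junction tags in control and 5.61% in *Qk* cKO. As in *Grip1*, these shares overstate exon inclusion. *Gpm6b* mRNA itself was at 44.9 ± 1.12 RPKM in control and 46.2 ± 1.40 in *Qk* cKO (SD, n = 2, edgeR FDR 0.894). The X-linked *Xist* transcript, which female cells express, was at 57.1 and 64.5 RPKM in replicate 1 of control and *Qk* cKO and at 0.0265 and 0.0095 in replicate 2. The X-linked events therefore compared 1 sample of each kind in each group.

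**Figure D2:**
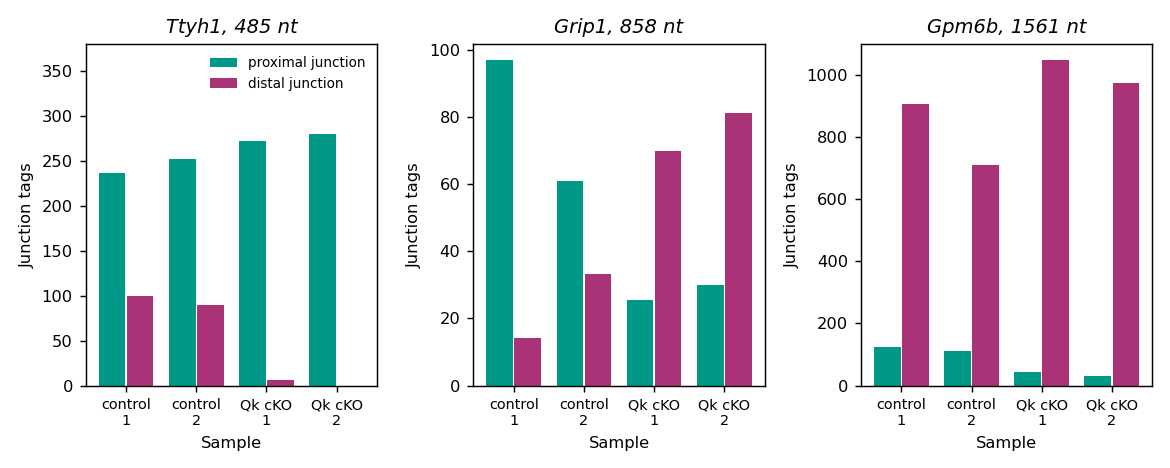
Tags on the proximal (green) and distal (purple) junctions of *Ttyh1*, *Grip1* and *Gpm6b* in each of the 4 samples (vertical axes, tags, on a separate scale for each gene). In *Ttyh1* the distal bars shrink to 6 and 0 in *Qk* cKO, in *Grip1* the taller bar changes from proximal to distal, and in *Gpm6b* the distal bars stay high while the proximal bars fall from 124 and 112 to 42.5 and 31.9.

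Known regulators of splicing were among the genes with called events. The list of 61 splicing regulators was chosen with earlier results of these data known. Of these genes 29 had a tested event, 54 events in all, and 5 were called, beside 1.34% of all tested events. Since the list was so chosen, setting its share beside that of all events makes no test. *Celf1*, *Sltm*, *Tra2a* and *Hnrnpc* moved towards the proximal site and *Hnrnpk* towards the distal. The median difference of the 54 was 0.148 percentage points, against -0.04 over all events. *Celf1* encodes a regulator of splicing and mRNA decay. Proximal use of its acceptors, 3075 nt apart in the 3' UTR, was 18.5% and 20.7% in control and 29.0% and 36.1% in *Qk* cKO (difference 12.6 points, FDR 0.0003, Fisher's exact test). *Sltm*, a SAFB-like nuclear protein, had 50.8% and 63.6% in control and 68.2% and 68.7% in *Qk* cKO at sites 54 nt apart. *Tra2a* encodes a splicing activator related to SR proteins. At its pair of sites 3 nt apart proximal use was 64.3% and 79.2% in control against 83.3% and 81.7%, so that the higher control lay close to both *Qk* cKO samples. *Hnrnpc* and *Hnrnpk* encode abundant heterogeneous nuclear ribonucleoproteins. In *Hnrnpc* proximal use at the 3 nt pair was 74.53% in both control replicate 1 and *Qk* cKO replicate 1, 66.7% in the other control and 79.0% in the other *Qk* cKO sample. In *Hnrnpk*, with sites 60 nt apart and a coverage of 3135 tags, it was 53.5% and 52.9% in control and 49.6% and 45.8% in *Qk* cKO (difference -5.55 points, FDR 0.0027, Fisher's exact test). These differences were small beside those of *Grip1* and *Ttyh1*, and none of the 54 events passed the edgeR interaction test, in which 7 had an unadjusted p below 0.05.

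The machinery that reads 3' splice sites showed no called difference of its own. Of 30 listed genes, among them *Sf1*, *U2af1*, *U2af2* and the *Sf3a* and *Sf3b* subunits, 28 had tags and 0 were called in level by edgeR or by DESeq2 (2 with an unadjusted p below 0.05 in each). Their median log2 fold change was 0.02, within a range from -0.21 to 0.20. Of their 12 tested acceptor events 0 were called by Fisher's exact test or edgeR, and 3 had an unadjusted Fisher p below 0.05. Of the 59 splicing regulators with tags, 0 were called in level by edgeR or DESeq2 (7 and 5 with an unadjusted p below 0.05). The list of scaffold and cell junction genes described next had 24 genes with tags, and that of cortical transcription and chromatin regulators 35. Of these genes 0 were called in level by edgeR (4 and 6 with an unadjusted p below 0.05) or by DESeq2 (3 and 4). Of the 5 tested events of STAR genes 0 were called by Fisher's exact test or edgeR (1 and 0 with an unadjusted p below 0.05). Among the 5 STAR genes *Qk* alone was called in level, at 32.5 and 34.2 RPKM in *Qk* cKO against 21.1 and 21.7 in control (log2 fold change 0.65, SE 0.06, edgeR FDR 2.50e-05).

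The genes listed as scaffold and cell junction genes held 3 called events among 15 tested, in *Grip1*, *Psd2* and *Magi1*, beside 1.34% of all tested events. This list was also chosen with earlier results of these data known, so its share makes no test. *Psd2* was on the list although it encodes an exchange factor for Arf6. At its sites 3 nt apart, proximal use was 30.2% and 27.8% in control and 2.86% and 12.4% in *Qk* cKO, on a coverage of only 29.3 tags (FDR 0.0657, Fisher's exact test). *Magi1* encodes a scaffold of tight and adherens junctions. Its proximal use at sites 36 nt apart was 71.7% and 94.6% in control and 93.0% and 96.1% in *Qk* cKO. This was the only called event whose groups overlapped, since control replicate 2 lay between the *Qk* cKO samples. Of 18 tested events in cortical transcription and chromatin regulators, a list chosen in the same way, 1 was called, beside the same 1.34%. It was in *Hmga1*, which encodes an AT-hook chromatin protein. There the proximal site had 27 and 24 tags in control and 12 and 1 in *Qk* cKO, the distal site 21 and 8 against 17 and 14. Proximal use was 56.2% and 75% in control and 41.4% and 6.67% in *Qk* cKO, and the spread within each group was wide.

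Sites 3 nt apart, where the products differ by a single triplet, formed the largest class, with 764 of the tested events (37.95%). Of these, 8 were called (1.05%), of which *Tra2a* and *Hnrnpc* moved towards the proximal site and *Hmga1*, *Psd2*, *Kat2a*, *Rnf19b*, *Fau* and *Hp1bp3* towards the distal site. The 3 nt themselves, in capitals, and the exon bases that follow are shown for called and for uncalled pairs, since they are the only sequence in which the products differ.
Hmga1, chr17:27562438-27562452, plus strand: GAGaaggaggaagag
Kat2a, chr11:100708971-100708985, minus strand: CAGgggagaagagga
Rnf19b, chr4:129073499-129073513, plus strand: CAGatgacatcaagc
Fau with 12 intron bases before, chr19:6058231-6058257, plus strand: ttcttccttcagTAGccaacatgcagc
Hnrnpc with 12 intron bases before, chr14:52075401-52075427, minus strand: tctcatccccagTAGagatgaagaatg
Dbn1, chr13:55474547-55474561, minus strand: CAGgccagcgaagga
Gnb1, chr4:155557468-155557482, plus strand: CAGcaggtggatgga
H2afy, chr13:56096220-56096234, minus strand: AAGaagcagggagaa
*Kat2a*, which encodes a histone acetyltransferase, had a proximal use of 40.5% and 39.6% in control against 20.6% and 24.9% in *Qk* cKO. In *Rnf19b*, which encodes a ubiquitin ligase, it was 20.5% and 18.8% against 5.75% and 9.69%. *Fau* encodes a ubiquitin-like protein fused to ribosomal protein S30, and its proximal use was 47.6% and 49.6% in control against 37.1% and 39.4% in *Qk* cKO. In all 3 genes the replicates lay closer to each other than to the other group. *Hp1bp3*, a linker histone-like chromatin protein, fell from 95.1% and 97.6% to 93.7% and 91.0%.

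The triplet between the sites went with how often the proximal acceptor was used, in control and *Qk* cKO alike. Of the 518 pairs whose triplet was read, 414 had CAG, 58 AAG, 43 TAG and 3 GAG as the last bases before the distal exon. Median proximal use in control was 57.4% for CAG (quartiles 35.5% and 77.8%), 62.3% for TAG and 74.5% for AAG (quartiles 50.01% and 87.8%). In *Qk* cKO replicates 1 and 2 the medians were 57.0% and 55.9% for CAG and 72.8% and 72.3% for AAG. Among these 3 classes the distal acceptor was used least after AAG in each of the 4 samples, but the quartiles overlapped widely. The 3 GAG pairs had a median of 63.8%, and in control replicate 2 their 75% lay above the 71.0% of AAG. Of the AAG pairs 0 of 58 were called by Fisher's exact test or by edgeR, with 4 and 1 at an unadjusted p below 0.05. *Dbn1*, *Gnb1* and *H2afy* were uncalled pairs with large coverage. In the actin-binding *Dbn1* proximal use was 26.2% and 25.3% in control against 24.3% and 26.3% in *Qk* cKO. In the G protein subunit gene *Gnb1* it was 21.8% and 21.2% against 20.6% and 21.7%. In *H2afy*, the gene of histone macroH2A (RefSeq *Macroh2a1*), it was 37.7% and 37.6% against 35.3% and 35.5%, a difference of -2.27 points that was not called (FDR 0.531, Fisher's exact test).

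**Figure D3:**
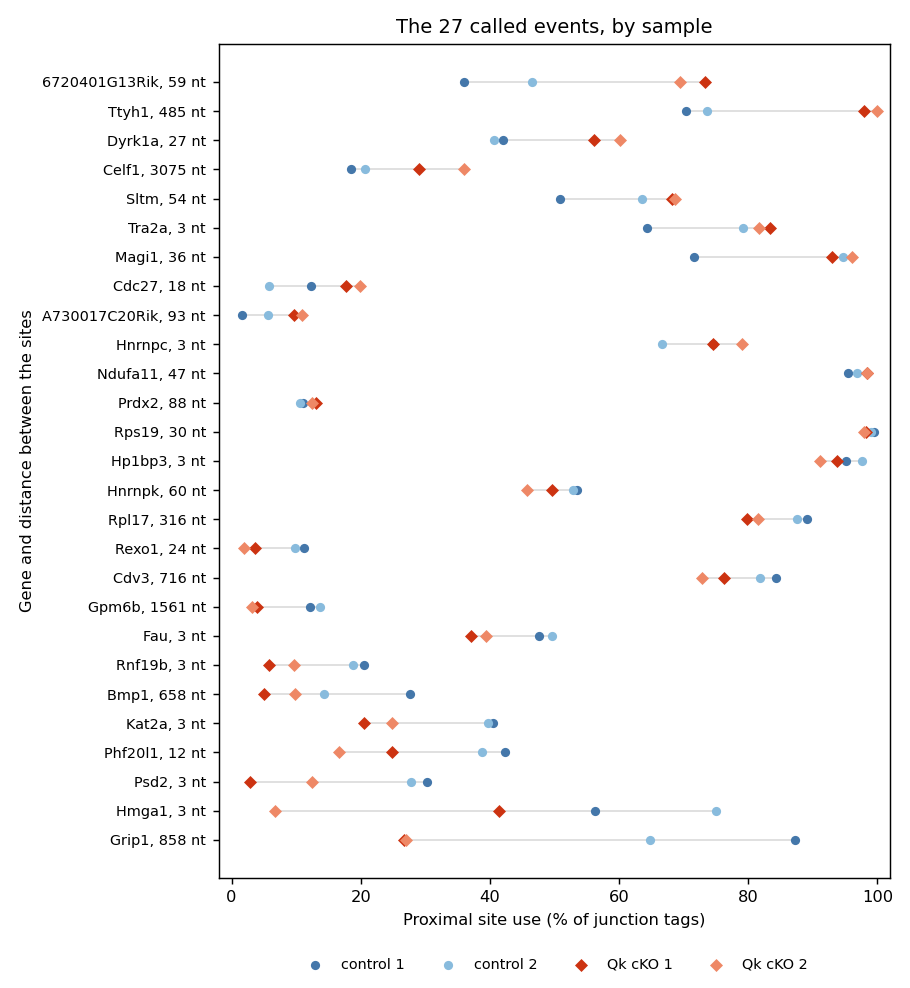
Proximal site use (horizontal axis, % of junction tags) of the 27 called events in each sample, ordered by the difference between the groups, with the distance between the sites beside each gene. Circles are the 2 controls and diamonds the 2 *Qk* cKO samples, and the diamonds lie outside the range of the circles in every row except *Magi1*. In *Hnrnpc* a circle is hidden behind a diamond at 74.53%. The control samples of *Grip1*, *Hmga1*, *Magi1*, *Tra2a* and *Sltm* are far apart.

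Of the remaining called events, the largest differences were in a non-coding RNA, a kinase and a chromatin reader. 6720401G13Rik, named *Firre* in RefSeq, is a nuclear long non-coding RNA of the X chromosome. Proximal use of its sites, 59 nt apart, was 35.9% and 46.5% in control and 73.3% and 69.5% in *Qk* cKO, on 12 and 20 proximal tags against 22 and 41 (difference 28.9 points, FDR 0.0305, Fisher's exact test). *Dyrk1a* encodes a protein kinase whose dosage affects brain growth. Its sites are 27 nt apart within the coding sequence (94663742 and 94663769 on chromosome 16), and proximal use was 42.0% and 40.6% against 56.0% and 60.1%. *Phf20l1*, a reader of methylated lysine, fell from 42.4% and 38.7% to 24.8% and 16.6% at sites 12 nt apart. *Bmp1*, the procollagen C-proteinase, fell from 27.7% and 14.4% to 4.99% and 9.82% at sites 658 nt apart, of which the proximal one belongs to a transcript annotated for nonsense-mediated decay. The coding stretch that the proximal site adds in *Dyrk1a* and the short stretches of *Phf20l1*, *Cdc27* and *Rexo1* end as follows, with the AG of the distal acceptor in capitals.
Dyrk1a, chr16:94663742-94663768, plus strand: gtgatgcctgacattgtcatgttacAG
Phf20l1, chr15:66597665-66597676, plus strand: tttctgttccAG
Cdc27, chr11:104526167-104526184, minus strand: actttttgtgttttacAG
Rexo1, chr10:80544421-80544444, minus strand: cactgacacacagtgcccctgcAG
6720401G13Rik, last 30 bases, chrX:50627251-50627280, minus strand: attgtgactcacagcctcctgtaatttcAG

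The other called events were mostly small in percentage points or rested on a rarely used site. *Cdc27*, a subunit of the anaphase-promoting complex, rose from 12.3% and 5.87% to 17.7% and 19.8%. *Rexo1*, an RNA exonuclease homologue, fell from 11.2% and 9.84% to 3.68% and 1.96%. *Cdv3* fell from 84.3% and 81.7% to 76.3% and 72.8%, at sites 716 nt apart. A730017C20Rik (RefSeq *Minar2*) had 1.59% and 5.62% in control against 9.74% and 10.9% in *Qk* cKO. In *Prdx2*, which encodes an antioxidant peroxiredoxin, the change was from 10.8% to 12.8% on a coverage of 1824 tags. In *Ndufa11*, a subunit of respiratory complex I, proximal use was 96.1% and 98.4%. The ribosomal protein genes *Rps19* and *Rpl17* fell from 99.3% to 98.1% and from 88.3% to 80.7%. Ribosomal protein genes, *Fau*, *Hmga1* and *Prdx2* can have near-identical copies in the genome, so their tags depend on how the reads were assigned and are less certain.

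The called share was highest where the sites lay far apart. Of 73 tested events with sites over 300 nt apart, 7 were called (9.59%). Calls were made in 2 of 341 events at 61 to 300 nt (0.587%), 9 of 560 at 13 to 60 nt (1.61%), 1 of 265 at 4 to 12 nt (0.377%) and the 8 of 764 at 3 nt given above. At 1 to 2 nt, 0 of 10 events were called by Fisher's exact test or edgeR, with 1 at an unadjusted p below 0.05 in each. The 7 were *Celf1*, *Gpm6b*, *Grip1*, *Cdv3*, *Bmp1*, *Ttyh1* and *Rpl17*, of which *Celf1* and *Ttyh1* moved towards the proximal site. These shares are a description and no test between the classes was made. Median proximal use in the class over 300 nt was 65.9% and 64.7% in control and 60.5% and 57.6% in *Qk* cKO, whereas at 4 to 12 nt it was 85.1% and 84.8% against 84.0% and 84.7%. The class over 300 nt also differed in structure. In 46 of its 66 placed events (69.7%) a GENCODE exon opened by the proximal acceptor ended before the distal acceptor, against 95 of 1488 placed events overall (6.38%). In such events the choice of acceptor can also be the inclusion of an exon, but whether a further exon follows was not checked for each. Of the 73, 31 shared a tag column with a tested cassette event.

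**Figure D4:**
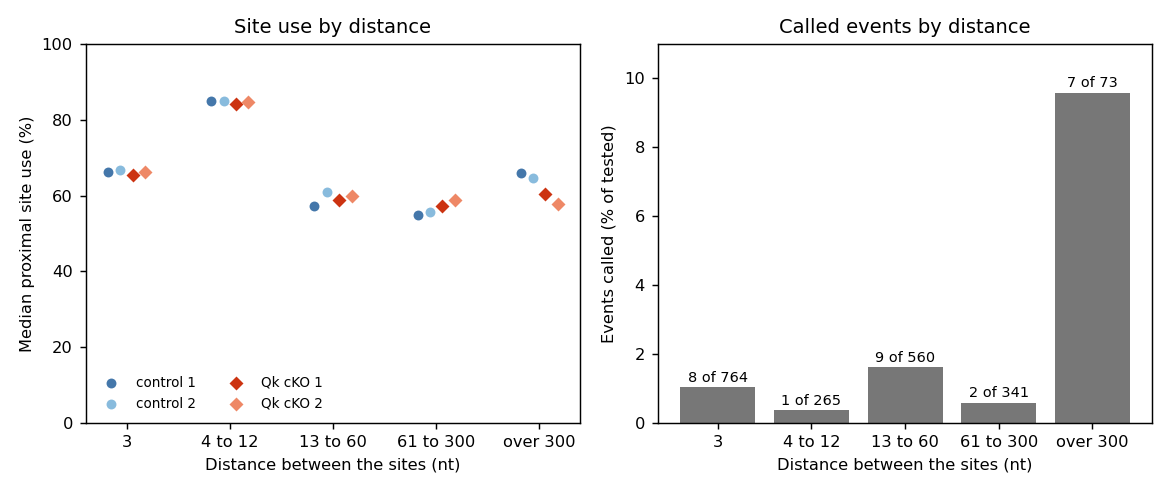
Left, the median proximal site use (%) of the tested events by distance between the sites (nt) in each of the 4 samples, circles for control and diamonds for *Qk* cKO. Right, the percentage of tested events that were called, with the counts above the bars. The 10 events at 1 to 2 nt are not drawn. Among the classes drawn, the medians are highest at 4 to 12 nt, and the called share is 9.59% over 300 nt and below 2% in the others.

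Over all distances, a multiple of 3, which keeps the reading frame, was about as common among called as among tested events. The distance was such a multiple for 19 of 27 called events (70.4%) and 1315 of 2013 tested ones (65.3%). Pairs 3 nt apart always keep the frame, and made up 29.6% of called and 37.95% of tested events. The shares over all distances therefore do not compare called and tested events outside that class. Of the 19 called events that kept the frame 8 were such pairs, and of the 1315 tested ones 764. Without the 3 nt class, 44.1% of 1249 tested events kept the frame. Some stretches lay in coding sequence in every annotated transcript that joins their donor to the proximal acceptor. These kept the frame in 474 of 596 cases (79.5%) and in all 7 called ones. The 7 were those of *Dyrk1a*, *Magi1*, *Cdc27*, *Rexo1*, *Hmga1*, *Rnf19b* and *Hnrnpc*.

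The stretches were searched for ACTAAC on the transcribed strand, with overlapping copies counted separately. It occurred in 14 of 62 stretches over 300 nt (22.6%) and in 2 of 828 stretches of 6 to 300 nt (0.242%). Among the called events over 300 nt 4 of 6 held it (66.7%), against 10 of 56 that were not called (17.9%). *Ttyh1* and *Grip1*, with 3 copies each, were the only stretches over 300 nt with at least 2. On the opposite strand, GTTAGT occurred in 12 of the 62 stretches (19.4%) and in 2 of the 6 called ones (33.3%). The copies began 30, 59 and 326 nt after the proximal acceptor in *Ttyh1* and 284, 745 and 749 nt after it in *Grip1*. In *Gpm6b* the copy began 1372 nt after the proximal acceptor, with 184 nt between it and the distal exon, and in *Cdv3* 395 nt after it. *Ttyh1* moved towards the proximal site and *Grip1*, *Gpm6b* and *Cdv3* towards the distal one. In the last 100 bases before the distal acceptor, which 200 tested stretches cover, ACTAAC did not occur, and the nearest copies in the 4 genes, those of *Grip1*, lay 104 and 108 nt before the distal exon. The last 20 bases before the distal acceptor were C or T at a median of 65.0% in 701 tested events and 67.5% in 14 called ones. The stretches of *Celf1* and *Bmp1* held no copy, and that of *Rpl17* was not placed. A match of letters is a description and not a binding site.

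**Figure D5:**
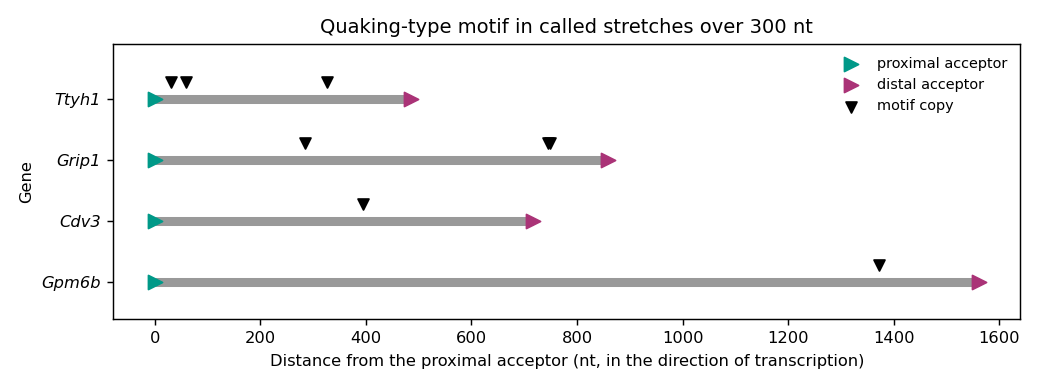
Positions of ACTAAC (black marks) in the stretch between the proximal (green) and distal (purple) acceptors of the 4 called events that hold it, drawn to scale as distance from the proximal acceptor (horizontal axis, nt). *Ttyh1* and *Grip1* hold 3 copies each, and *Cdv3* and *Gpm6b* hold 1 each.

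The levels of the 27 genes with a called event mostly did not differ. Of the 27, 2 were called lower (*Ttyh1* and *Fau*) and 0 higher by edgeR, against 0.377% lower and 0.207% higher (0.584% in all) of 18834 genes tested, and 7 had an unadjusted p below 0.05. DESeq2 called 2 of them in either direction. Their median log2 fold change was -0.0043. *Fau* was at 41.4 ± 1.75 RPKM in control and 29.6 ± 1.31 in *Qk* cKO (SD, n = 2, log2 fold change -0.47, SE 0.11, edgeR FDR 0.0887). Their mean level in control ran from 9.16 RPKM in 6720401G13Rik to 704 RPKM in *Prdx2*, with a median of 24.3.

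*Qk* itself had 3 listed acceptor events, of which 2 were tested and neither was called. The first, with sites 24 nt apart after the donor at 10217716 on chromosome 17 (minus strand), had a proximal use of 87.1% and 88.5% in control and 90.5% and 90.0% in *Qk* cKO (FDR 0.388, Fisher's exact test). The second joins the donor at 10216160 to acceptors at 10215474 and 10214194, in the 3' part of the gene where the *Qk* isoforms differ. Its proximal use was 11.8% and 16.8% in control and 17.98% and 18.02% in *Qk* cKO (FDR 0.786, Fisher's exact test). The ratio of its sites thus differed little, but the tags on both sites together were 163 and 161 in control and 37.2 and 33.1 in *Qk* cKO. Per 1000 *Qk* tags this was 18.9 and 19.8 against 2.70 and 2.39, while the sites of the first event together had 50.5 and 55.6 against 56.8 and 57.7. These sums were not tested.

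Uncalled events with many tags give the precision that the data allowed. Among these were 2 events of *Serbp1* (sites 18 and 45 nt apart), which encodes an mRNA-binding protein, and *Hnrnpc* (sites 21 nt apart). *Serbp1* had a proximal use of 45.0% and 46.3% in control and 46.9% and 45.1% in *Qk* cKO at the first, and 32.0% and 32.2% against 33.1% and 30.9% at the second. The differences were 0.369 and -0.096 points, and the standard error of the log2 change in odds was 0.12 and 0.13. *Hnrnpc* had 67.9% and 72.5% in control against 68.4% and 67.9%, a difference of -1.83 points (SE of the log2 change in odds 0.14), and its controls lay further apart than the groups. Among the 302 events with a coverage of 200 or more 10 were called (3.31%), against 6 of 869 with a coverage of 20 to 49 (0.690%).

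Compared with the other kinds of event under the same test on junction tags, with the FDR adjusted within each type, acceptor choice had the smallest share of calls. Cassette exons were called in 10.6% of 4599 tested events, mutually exclusive exons in 11.7% of 598, tandem cassettes in 8.23% of 838, retained introns in 4.97% of 1751 and alternative 5' splice sites in 2.87% of 872. Over all 6 types the share was 7.17%. With a minimum of 10 points, the shares were 5.59% for cassette exons, 6.52% for mutually exclusive exons, 3.7% for tandem cassettes, 2.23% for retained introns, 1.26% for alternative 5' splice sites and 3.67% over all types, against the 0.745% given above. No test was made between the types, which differ in tags per event, in how these were counted and in the p that the FDR limit allowed. For cassettes, mutually exclusive exons and retained introns, tags of several junctions or splice sites were summed for an isoform. A molecule could therefore be counted more than once, which raises the counts in the test. Acceptor events used a single junction for each site. With adjustment over all 6 types together, 77 of the 2013 acceptor events were called. The order of the types given here is that of adjustment within each type. Of the 27 called acceptor events 15 overlapped a tested event of another type, and 6 overlapped a called one: cassettes in *Grip1*, *Gpm6b*, *Magi1* and *Rpl17*, retained introns in *Grip1* and *Hnrnpk*, and a mutually exclusive pair in *Prdx2*.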

How the data were processed

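Poly-A selected RNA was sequenced as paired reads of 150 nt. The authors aligned the reads to mm10 with OLego and counted them with Quantas. The deposited values were estimated counts (tags) per gene, junction and isoform, which need not be whole (59.8% to 74.1% of the tested junction values were not), and RPKM per gene. The TruSeq v2 kit does not mark strand. Labels and results of the study give 2 replicates per group, its methods 3.

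Tags were summed over replicates, rounded and compared by two-sided Fisher's exact test (SciPy 1.17.1) at a coverage of at least 20, with Benjamini-Hochberg adjustment over all tested acceptor events. The test and its intervals cover counting error only. Wilson 95% intervals of the site use in single samples of the named events had half-widths from 0.385 to 16.9 points (median 4.16). Rounded tags entered edgeR 4.0.16 (R 4.3.3), for site use as an interaction of site and genotype with a baseline per sample, and for gene levels after TMM over genes with at least 1 tag, with DESeq2 1.42.0 as alternative. Standard errors came from the F statistic. Fisher's exact test and both edgeR models were checked on simulated data. The simulated site counts held counting error only, so they do not show how often variation between embryos leads to a call.

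Named were *Qk*, called events of at least 10 points on 1 side of both controls, events called by edgeR, the 4 pairs of sites 3 nt apart with the largest coverage and up to 6 called ones, called members of the fixed lists, and the 4 uncalled events with the largest coverage. One result that the rule names is not reported here. The other called events were added after their values were seen. The members, lists and rule were chosen with earlier results of these data known. Acceptors were placed, and sequences read, from GENCODE M21 annotation and transcripts, so the planned windows upstream of both acceptors were reduced to the stretch between them, and the opposite strand of the motif was added. Positions count from 1. RefSeq names are from GRCm38.p6. Alternatives are given in the closing section.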

Additional observations from a re-analysis of the deposited data

How the results depend on the processing

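The events of *Ttyh1*, *Grip1* and *Gpm6b* were called in all 13 alternatives, and *Celf1* in 12 of 13. Among the 13, the mean of the replicates in place of summed tags kept the reported p and FDR, so its calls were fixed in advance. No called event changed direction in any alternative run. A change could appear only with the isoform tags, the mean of the replicates or a sample left out. The other alternatives took the difference from the same summed tags. The number of called events, 27 as reported, was 51 with isoform tags (20 of the 27 among them), 3 with the edgeR interaction test without a replicate block, 77 with adjustment over all 6 event types and 152 with every listing counted. It was 23 without a filter on low coverage and 30 and 33 at a coverage of at least 10 and 50. The number with at least 10 points, 15 as reported, was 2 with edgeR, 38 with adjustment over all types, 37 with every listing counted and 6 at a minimum of 20 points. A Cochran-Mantel-Haenszel test stratified by replicate number, the replicate block, called 24 events, all among the 27. The replicate numbers do not pair the samples by the labels, and deviations of samples with the same number correlated at 0.0002 over 2011 events and at -0.050 over 12339 genes. *Xist* was at 57.1 and 64.5 RPKM in replicate 1 of control and *Qk* cKO and at 0.0265 and 0.0095 in replicate 2. The block by replicate number was therefore also a block by the sex that *Xist* marks. Leaving out each sample in turn, on the remaining tags and with counting error only, gave 11 to 60 called events and 7 to 41 of at least 10 points. Of the 27, 8 were called without control replicate 1 (11 in all), 19 without control replicate 2 (60 in all), 12 without *Qk* cKO replicate 1 (24) and 11 without *Qk* cKO replicate 2 (34). The difference in *Grip1* ranged from -60.4 to -37.9 points, in *Ttyh1* from 25.2 to 28.6 and in *Gpm6b* from -10.1 to -8.53. *Fau* was called in none of the 4. Differences moved by more than 1.5 times in *Bmp1* (-7.30), *Tra2a* (3.24), *Sltm* (4.88), *Ndufa11* (1.49) and *Hnrnpc* (9.82) without control replicate 1, and in *Hnrnpc* (1.99) and *Magi1* (23.03) without control replicate 2. They did so without *Qk* cKO replicate 2 in *Hmga1* (-22.4), *Hp1bp3* (-2.51), *Hnrnpk* (-3.61) and *Hnrnpc* (3.42). *Tra2a* and *Sltm* without control replicate 2 gave 18.2 and 17.6. The number of genes with a called level, 110 as reported, was 81 with DESeq2, 11 with filterByExpr, 192 with the replicate block and 0 to 428 with a sample left out (0 without control replicate 2, where 966 genes had an unadjusted p below 0.05 in edgeR). *Fau* was not called in level with filterByExpr (edgeR FDR 0.305). At a coverage of at least 50, median proximal use in control was 60.8% at 3 nt (65.6% as reported), 71.7% at 4 to 12 nt (83.7%), 55.0% at 13 to 60 nt (58.3%), 46.6% at 61 to 300 nt (56.5%) and 54.3% over 300 nt (64.2%), with fewer events tested. The cause of the changes was not tested.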

Other observations

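The files also hold isoform tags, in which the proximal form has the value of the exon tags and the distal form that of its junction. With these, 31 events were called that the junction tags alone did not call. The first by p was the second *Qk* event. Its tags for the proximal form were 139 and 115 in control and 162 and 192 in *Qk* cKO, and those for the distal form 144 and 134 against 30.6 and 27.1 (FDR 4.04e-33, Fisher's exact test on isoform tags, against 0.786 on junction tags). Others among the 31 included *Fgf17*, a fibroblast growth factor gene, with a proximal use by junction tags of 21.4% in control and 53.8% in *Qk* cKO on a coverage of 20 tags (FDR 0.0449 on isoform tags and 0.297 on junction tags, Fisher's exact test), and *Glcci1* (51.2% and 35.0%, FDR 0.0685 and 0.112). Both were chosen for mention after their values were seen, and neither was called by the edgeR interaction test (FDR 0.837 each).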
